A study of Homo sapiens with 8 samples.

Results

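The S100 genes encode small calcium-binding proteins. The members described here are S100A1, S100A2, S100A4, S100A6, S100A10, S100A11, S100A13, S100A14, S100A16 and S100P, 10 of the 18404 genes measured and 10 of the 21 S100 genes with a value. They were chosen by symbol, from a list drawn up with earlier results of these data in view, so their counts and differences are given as a description. Where a symbol has more than 1 probe set, the rule takes whichever is brightest on average over the 8 arrays. That step decided nothing, because every S100 gene had 1 probe set.

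HepG2 is an established human liver tumour line that keeps many hepatocyte traits. Cells of 4 cultures had been exposed to 0.5 mM hydrogen peroxide (H2O2) for 60 minutes, a treatment meant to make them senescent, and 4 untreated cultures had been given medium alone. Both groups carry no other treatment or genetic change in the labels. After the exposure 5 days passed before senescence was tested, and the labels give no separate time for taking RNA. Each culture was measured on 1 single-channel expression array, and the number of arrays limits the precision. Array medians lay between 6.85 and 6.93 on the log2 scale. Pearson's r over all probe sets was 0.990 to 0.996 within a group and 0.979 to 0.985 between groups. The 7 hepatocyte markers measured, ALB and AFP among them, averaged 12.12 to 12.19 on untreated arrays and 11.78 to 11.99 on H2O2 arrays. By the call defined below, 4 of them fell (57.1%, against 14.8% of all genes) and 1 rose (14.3%, against 19.2%). In a bulk sample, a change in the number of expressing cells and a change in RNA per cell cannot be told apart.

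S100 proteins are built around a pair of EF-hands, loops that hold a calcium ion, and most act as dimers. Calcium exposes a surface through which they grip other proteins, such as annexins, cytoskeletal motors and p53. S100A10 is an exception, as its EF-hands no longer bind calcium. Some S100 proteins also leave the cell and are sensed by the receptors AGER (RAGE) and TLR4. Most of the family lies in a cluster on the long arm of chromosome 1, inside the region that also holds genes of skin differentiation.

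Among the 10 members 8 rose with H2O2, 0 fell (also 0 in limma at an unadjusted p under 0.05), and S100A2 and S100P did not pass the test. A call means an adjusted p under 0.05 in a limma model over all genes with Benjamini-Hochberg adjustment, a rule by which 19.2% of all genes were called higher and 14.8% lower. The members' median log2 difference, H2O2 minus untreated, was 0.53, against -0.022 over all genes. In 8 members every H2O2 array lay above every untreated array, which held for 18.9% of all genes. The rise was at least 2-fold in 3 members, S100A11, S100A6 and S100A16, and smaller in 5. Levels below are log2 values with their SD, and differences are on the log2 scale with their standard error, for 4 arrays per group. Replicate numbers follow the sample titles.

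**Figure D1:**
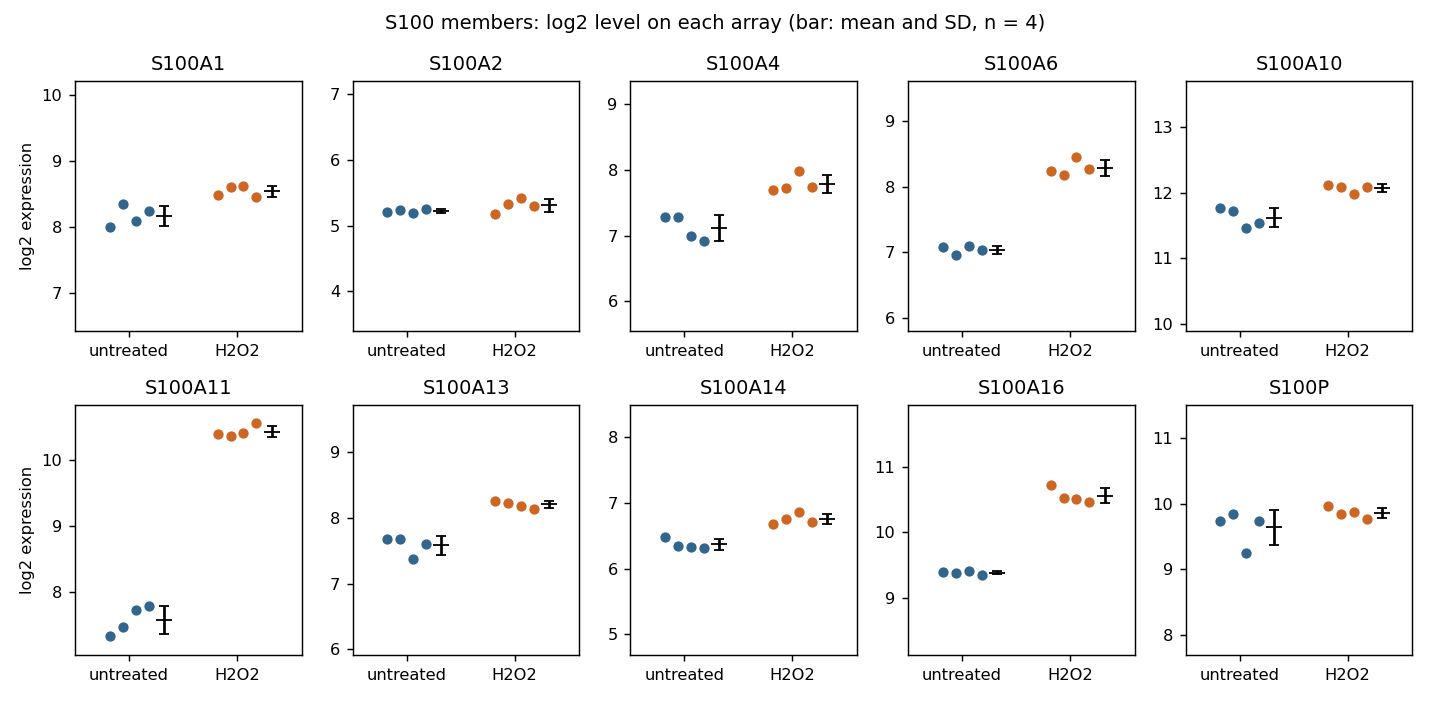
Each panel plots the log2 expression level of 1 S100 member, with 1 point per array (untreated replicates 1 to 4 at left, H2O2 replicates 1 to 4 at right) and a bar for the mean and SD; all panels span the same number of log2 units. The groups stand apart in 8 panels, widest in S100A11, and overlap in S100A2 and S100P.

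The stretches of DNA just before the start of S100A11, S100A6 and S100A3, S100 genes that rose clearly, and of S100A2, which was not called, are shown as examples. They were picked with those results known, so they give no contrast between genes that rose and genes that were not called. The stretches are the 250 bases upstream of the start, 5′ to 3′ on the gene's strand, from RefSeq on build GRCh38.p14. S100A11 lies at chr1:152037005-152037254, S100A6 at chr1:153535992-153536241, S100A3, which is an S100 gene outside the 10, at chr1:153549259-153549508 and S100A2 (the first of its starts in the table) at chr1:153565845-153566094, all on the minus strand. Capitals mark matches on either strand to the letters searched.
S100A11: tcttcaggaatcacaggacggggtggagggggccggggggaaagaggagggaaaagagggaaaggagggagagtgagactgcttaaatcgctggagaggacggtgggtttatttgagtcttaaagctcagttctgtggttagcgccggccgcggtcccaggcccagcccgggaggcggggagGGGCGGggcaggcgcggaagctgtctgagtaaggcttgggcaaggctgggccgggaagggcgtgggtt
S100A6: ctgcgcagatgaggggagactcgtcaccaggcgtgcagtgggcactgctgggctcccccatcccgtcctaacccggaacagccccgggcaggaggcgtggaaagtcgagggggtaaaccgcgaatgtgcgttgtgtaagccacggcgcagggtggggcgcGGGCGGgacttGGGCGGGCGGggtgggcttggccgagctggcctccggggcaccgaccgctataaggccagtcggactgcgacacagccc
S100A3: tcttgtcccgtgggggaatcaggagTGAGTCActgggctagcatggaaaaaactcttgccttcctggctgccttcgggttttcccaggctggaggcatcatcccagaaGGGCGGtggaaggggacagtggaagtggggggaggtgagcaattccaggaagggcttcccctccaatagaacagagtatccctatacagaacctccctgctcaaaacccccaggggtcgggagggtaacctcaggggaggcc
S100A2: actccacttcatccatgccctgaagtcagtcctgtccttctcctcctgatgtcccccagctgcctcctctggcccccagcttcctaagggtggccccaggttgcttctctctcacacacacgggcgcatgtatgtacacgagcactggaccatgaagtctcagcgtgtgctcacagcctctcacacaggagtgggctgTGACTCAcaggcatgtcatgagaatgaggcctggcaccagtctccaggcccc

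The motifs searched were the AP-1 element TGANTCA, the GC box GGGCGG, the TATA box TATAAA, the p53 half-site and the NF-kB element, the last of these by their usual consensus. Matches that overlap were counted separately, and S100A6 holds 3 GC boxes, of which a pair overlap. RefSeq gave 14 start sites for the 10 members. A GC box stood in 5 of these 14 upstream stretches (35.7%), against 42.6% of all 35116 stretches of this length. They belong to S100A6, S100A10, S100A11, S100A13 and S100A16, of which S100A13 and S100A16 also have starts without a match. The called members S100A1, S100A4 and S100A14 had no GC box, nor had S100A2 and S100P. A TATA box stood in 3 of the 14 (21.4%), those of S100A4, S100A13 and S100P, against 10.7%. The AP-1 element matched in 1 of the 14, that of S100A2, 52 bases before its first start, against 6.57% of all stretches, and outside the 10 it matched in S100A3, S100A5 and S100A12. The p53 half-site matched in 1 of the 14, of S100A16 (5.57% of all stretches), and the NF-kB element in 1, of S100A14 (5.21%). GC content was 55.6% to 71.2% over the members' stretches, and its median over all stretches was 58.0%. A match describes the letters and is not a binding site.

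S100A11, also called calgizzarin, binds annexin A1 and is known in membrane repair and growth control. In the order of their replicate numbers, the untreated arrays read 7.32, 7.46, 7.71 and 7.79 and the H2O2 arrays 10.39, 10.36, 10.42 and 10.56. The lowest H2O2 array lay 2.58 log2 units above the highest untreated array. The mean went from 7.57 ± 0.22 to 10.43 ± 0.086, a difference of 2.86 ± 0.098 or 7.26-fold (limma adjusted p = 1.43e-10). It was the 18th largest rise of all 18404 genes. RefSeq lists 10 pseudogene copies of S100A11, and how far the probe set also reads them was not tested.

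S100A6, or calcyclin, was first known from growth-stimulated cells and binds the protein CACYBP. Untreated replicates gave 7.08, 6.96, 7.09 and 7.04 and H2O2 replicates 8.24, 8.18, 8.45 and 8.27. The groups were separated by 1.09 log2 units and the arrays of each group lay close together. The difference was 1.24 ± 0.074, or 2.37-fold (limma adjusted p = 2.35e-08).

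S100A16 is a widely expressed member with a single working EF-hand per subunit. Its untreated replicates were nearly identical at 9.39, 9.38, 9.41 and 9.36, and the H2O2 replicates were 10.72, 10.53, 10.50 and 10.47. H2O2 replicate 1 was the highest, and all 4 treated arrays lay more than 1 log2 unit above the untreated ones. S100A16 rose by 1.17 ± 0.071, or 2.25-fold (limma adjusted p = 3.00e-08).

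S100A4, known from metastasis and as a binder of the non-muscle myosin MYH9, read 7.29, 7.28, 6.99 and 6.92 in the untreated and 7.70, 7.72, 7.98 and 7.74 in the H2O2 replicates. H2O2 replicate 3 stood apart as the highest. S100A4 rose by 0.67 ± 0.099 (limma adjusted p = 0.000119).

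S100A13, which helps FGF1 and IL1A leave the cell by a route outside the classical secretory pathway, gave 7.68, 7.67, 7.38 and 7.61 without and 8.26, 8.23, 8.19 and 8.13 with H2O2. Its difference was 0.62 ± 0.078 (limma adjusted p = 2.82e-05). S100A1, best known from heart and muscle, lay beside it with 8.01, 8.35, 8.09 and 8.25 in untreated and 8.48, 8.61, 8.63 and 8.46 in H2O2 replicates. The gap between the groups was only 0.11 log2 units, and S100A1 rose by 0.37 ± 0.083 (limma adjusted p = 0.00316). By their RefSeq positions, S100A13, on the minus strand, and S100A1, on the plus strand, overlap by 3606 bases. Whether their probe sets share signal was not tested.

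S100A10, or p11, partners annexin A2 at the plasma membrane and there binds plasminogen. It gave 11.76, 11.72, 11.47 and 11.53 in untreated and 12.12, 12.09, 11.98 and 12.09 in H2O2 replicates. The lowest treated array stood above the highest untreated one by 0.22. S100A10 rose by 0.45 ± 0.078, or 1.37-fold (limma adjusted p = 0.000436). S100A14, an epithelial member, gave 6.48, 6.34, 6.33 and 6.32 in untreated and 6.68, 6.76, 6.86 and 6.71 in H2O2 replicates. All 8 values lay below 6.89, the median of all values, a level not shown to be above background. S100A14 rose by 0.38 ± 0.070 (limma adjusted p = 0.000624).

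S100P, named for its placental source and a partner of the cytoskeletal linker ezrin, was the only member on another chromosome. Its untreated replicates were 9.73, 9.83, 9.24 and 9.74 and its H2O2 replicates 9.96, 9.85, 9.86 and 9.76. The groups overlapped, and untreated replicate 3 lay well below the other arrays. The difference was 0.22 ± 0.11 (95% interval -0.019 to 0.46, limma adjusted p = 0.153), and 0.088 without untreated replicate 3 (adjusted p = 0.357). S100A2, an epithelial member that binds p53, gave 5.21, 5.23, 5.19 and 5.25 in untreated and 5.18, 5.33, 5.41 and 5.30 in H2O2 replicates, below the median of all values on every array. Its difference was 0.084 ± 0.068 (95% interval -0.062 to 0.23, limma adjusted p = 0.389). For both genes the interval includes a difference of 0, and it does not show that the level stayed the same.

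The members did not vary as a block within a group. After each group's mean was removed, the 45 pairs of members had correlations over the 8 arrays from -0.82 to 0.96 with a median of 0.11, and 26 were above 0. The highest was that of S100A13 with S100P and the lowest that of S100A2 with S100A16. The arrays share their group's mean, so these values only describe the residual spread.

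Of the 11 other S100 genes 2 rose (18.2%), 0 fell (also 0 in limma at an unadjusted p under 0.05) and 9 did not pass. Over all genes 19.2% were called higher and 14.8% lower. The median difference of the 11 was 0.027. S100A3, a cysteine-rich protein of the hair cuticle, was 6.24, 6.28, 6.38 and 6.55 in untreated and 8.72, 8.61, 8.59 and 8.70 in H2O2 replicates. That is a rise of 2.29 ± 0.078, or 4.89-fold (limma adjusted p = 1.30e-10), behind only S100A11 in the family. All untreated arrays lay below the median of all values, which limits how exactly this fold is known. S100Z gave 5.11, 4.95, 5.09 and 5.20 against 5.35, 5.39, 5.46 and 5.28, with a narrow gap of 0.076 and a difference of 0.28 ± 0.073 (limma adjusted p = 0.00790), and lay below the median throughout.

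The alarmin genes were not called. S100A8 (0.043 ± 0.088) and S100A9 (0.013 ± 0.094), which form calprotectin, and S100A12 (-0.18 ± 0.10), all products of myeloid cells, lay below the median of all values in both groups. So did S100A7 (0.027 ± 0.094), S100A7A (-0.028 ± 0.086), S100A7L2 (-0.12 ± 0.090), which RefSeq lists as a pseudogene, S100A5 (0.072 ± 0.079), S100G (-0.083 ± 0.082), the intestinal calcium carrier calbindin-D9k, and the glial S100B (0.11 ± 0.100). Their adjusted p-values in limma ran from 0.205 to 0.933.

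Along chromosome 1 the called S100 genes lay in 2 of 3 stretches. This split was not part of the planned comparisons, so its counts only describe where the calls fell. Over all genes 19.2% were called higher and 14.8% lower. Both S100A10 and S100A11, at one end, were called higher. In the next stretch, from S100A9 to S100A7, 0 of 5 protein-coding S100 genes were called in limma, or passed at an unadjusted p under 0.05. Their differences ran from -0.18 to 0.043, and all 5 lay below the median of all values in both groups. With array weights S100A12 was called lower. S100A7L2, listed as a pseudogene, is left out of this order. In the last, from S100A6 to S100A1, 7 of 9 were called higher, S100A5 and S100A2 being the others. The neighbours S100A4 and S100A5, of which the former was called and the latter was not, overlap by 65 bases.

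**Figure D2:**
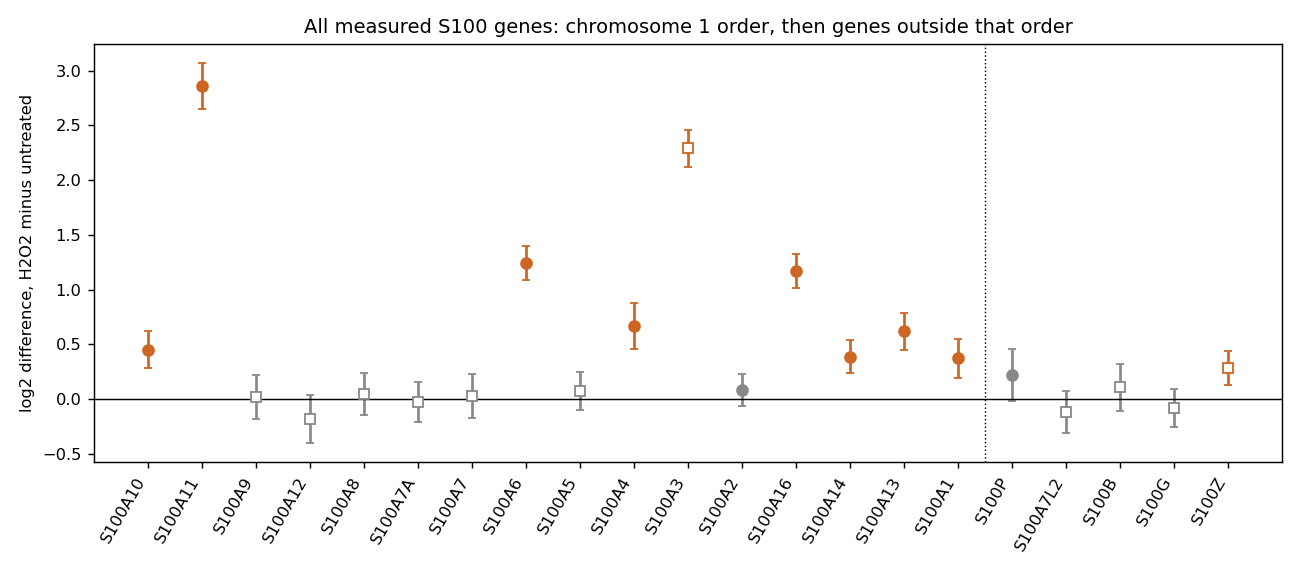
Points give the log2 difference, H2O2 minus untreated, for all 21 measured S100 genes with 95% intervals; filled circles are the 10 members, open squares the other S100 genes, orange those called higher and grey those not called. Genes left of the dotted line are protein-coding S100 genes in their order on chromosome 1. The split into stretches was not planned. From S100A9 to S100A7 0 of 5 were called, and from S100A6 to S100A1 7 of 9, against 19.2% of all genes called higher.

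Of 16 measured genes beside the S100 cluster, 2 rose (12.5%) and 0 fell, against 19.2% called higher and 14.8% lower over all genes. In both groups 10 of the 16 lay below the median of all values, a level not shown to be above background. The neighbours' median difference was -0.0046, and at an unadjusted p under 0.05 in limma 3 were higher and 2 lower. The count of 0 lower did not hold in every setting: 5 were called lower with array weights (CHTOP, LINGO4, PGLYRP3, RPTN and TCHH), 3 without H2O2 replicate 3 (LINGO4, RPTN and TCHH), and 1 after quantile normalization or the filter on dim genes (CHTOP) and without untreated replicate 4 or H2O2 replicate 2 (PGLYRP3). SNAPIN, a synaptic vesicle and lysosome adaptor, rose by 0.33 ± 0.083 and INTS3, an Integrator complex subunit, by 0.23 ± 0.067 (limma adjusted p = 0.0171). The INTS3 call depended on the probe set, since another of its probe sets gave -0.029 and the mean of its probe sets 0.10 (adjusted p = 0.294), and was lost without untreated replicate 1 (0.19, adjusted p = 0.0695) and without H2O2 replicate 4 (0.21, adjusted p = 0.0557). The fused S100 proteins of skin, filaggrin (FLG) and its relatives, carry an S100 domain at one end of a long repeat protein. Of these, 4 (FLG, RPTN, TCHH and TCHHL1) are also among the 16 neighbours. Of the 6 measured 0 passed the test in limma and 1 had an unadjusted p under 0.05, and all lay below the median of all values in both groups. FLG gave 0.27 ± 0.100 (adjusted p = 0.0555) and was called without H2O2 replicate 2 (0.36, adjusted p = 0.00619) and after quantile normalization (0.29). The fused proteins called lower without H2O2 replicate 3 or with array weights were 2, RPTN and TCHH, the same genes as in the counts of neighbours.

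Known partners and receptors of S100 proteins went both ways, with 10 of 28 measured genes higher (35.7%) and 5 lower (17.9%). The shares over all genes were 19.2% and 14.8%, and the list's median difference was 0.0021. With array weights 8 of the 28 were called lower, with AGER, CACYBP and KCNK3 added. TLR4, which senses calprotectin, rose most, from 5.14 ± 0.10 to 7.98 ± 0.15, a difference of 2.85 ± 0.085 (limma adjusted p = 4.14e-11). AGER gave -0.11 ± 0.073 (adjusted p = 0.289) and passed as lower with array weights (-0.16, adjusted p = 0.0392). ANXA1, the annexin bound by S100A11, rose by 2.72 ± 0.088, from 4.61 ± 0.051 to 7.33 ± 0.19. Both TLR4 and ANXA1 started below the median of all values, so their folds are known less exactly.

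ANXA2, the partner of S100A10, gave 0.21 ± 0.081 (limma adjusted p = 0.0646) and did not pass. It was called higher with a variance trend (adjusted p = 0.0380), with dim genes left out (adjusted p = 0.0393) and without untreated replicate 1 (0.26, adjusted p = 0.0359). Of the plasminogen system that S100A10 serves, the urokinase gene PLAU rose by 1.47 ± 0.073 and its receptor PLAUR by 0.90 ± 0.069. PLAT, another plasminogen activator gene, rose by 0.35 ± 0.075, while PLG, plasminogen itself, fell by 1.22 ± 0.093. MYH9, the myosin bound by S100A4, rose by 0.60 ± 0.11, and MYH10, a related non-muscle myosin, fell by 0.30 ± 0.083. CACYBP, the partner of S100A6, gave -0.22 ± 0.10 (adjusted p = 0.117), and was called lower with the replicate block (-0.22, limma adjusted p = 0.0418) and with array weights (-0.23, adjusted p = 0.0454). FGF1 (-0.0087 ± 0.11) and IL1A (-0.016 ± 0.091), the cargoes of S100A13, lay below the median of all values in both groups. ERBB2, a growth factor receptor, fell by 0.38 ± 0.075, and S100PBP, a nuclear binder of S100P, gave -0.097 ± 0.067. MDM2, the p53 ligase that some S100 proteins bind, rose by 0.77 ± 0.065.

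Set beside other calcium-binding families, 6 of 11 measured annexins rose (54.5%) and 1 fell (9.09%), with a median of 0.31. Over all genes 19.2% were called higher and 14.8% lower. The annexins were led by ANXA3 at 3.34 ± 0.088 and ANXA1, with ANXA7 at 0.49 ± 0.083 and ANXA6 at -0.25 ± 0.062. Annexins share ANXA1, ANXA2, ANXA6 and ANXA11 with the partner list. Of 43 other EF-hand proteins, relatives of calmodulin and calpain, 13 rose (30.2%) and 5 fell (11.6%), with a median of 0.0098. CAPN2, the large subunit of m-calpain, rose by 2.82 ± 0.10, SRI, or sorcin, by 1.24 ± 0.15 from a low level of 3.72 ± 0.38, and the secretagogin gene SCGN by 1.05 ± 0.13. CETN3, a centrin of the centrosome, fell by 0.82 ± 0.17. CIB2 (-0.31 ± 0.10) and CETN2 (-0.26 ± 0.092) passed too, with overlapping groups. CIB2 was lost without untreated replicate 2 or 3 or H2O2 replicate 3 or 4 (-0.31 to -0.25), after quantile normalization (-0.29) and with array weights (-0.21), and the filter on dim genes removed it. CETN2 was lost without untreated replicate 1, 2 or 4 or H2O2 replicate 3 or 4 (-0.28 to -0.21). The number of the 43 called lower was 2 without untreated replicate 2 or H2O2 replicate 4, 7 without H2O2 replicate 3 and 9 with array weights. No difference between these families was tested. These lists, like the members, were drawn up with results of these data known.

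**Figure D3:**
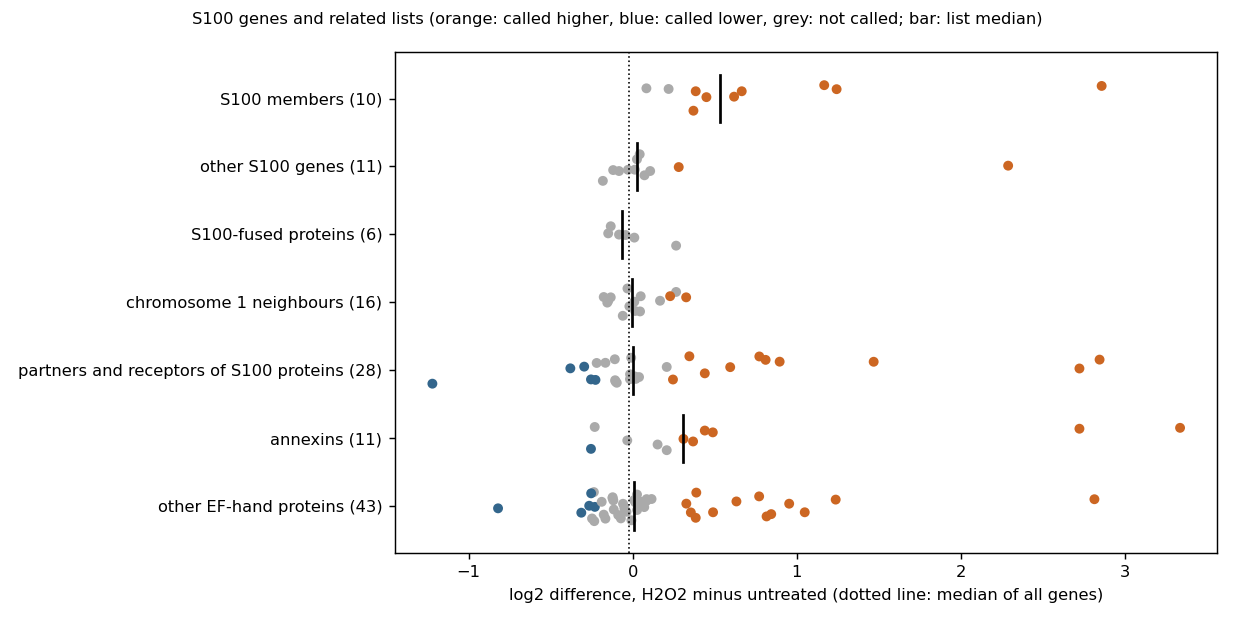
Each point is 1 gene at its log2 difference, H2O2 minus untreated, in 1 of 7 lists (number measured in brackets); orange marks genes called higher, blue lower and grey not called, a bar the list's median and the dotted line the median of all genes at -0.022; vertical scatter within a list has no meaning. The members' median of 0.53 and the annexins' of 0.31 lie to the right of the line, and the other lists' medians close to it.

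The 5 genes outside the family whose values followed S100A11 most closely, by Euclidean distance over the 8 arrays after each gene's own mean was removed, were CAPN2 (distance 0.223), FRMD5 (0.251), GLIPR1 (0.334), CTSE (0.359) and TNS4 (0.368). Because this distance takes in the difference between the groups, genes chosen by it rise by a similar amount. The rises ran from 2.71 ± 0.085 for FRMD5 to 3.08 ± 0.089 for CTSE. CAPN2 went from 7.64 ± 0.23 to 10.46 ± 0.073.

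Markers of cell types in which S100 genes are known were read on the same arrays. The 9 leukocyte markers averaged 7.05 to 7.12 on untreated and 7.24 to 7.32 on H2O2 arrays, with a median difference of -0.048 over the 9 genes. Of these 3 rose (33.3%, against 19.2% of all genes), CD68 (0.80 ± 0.071), CD79A (1.12 ± 0.076) and CD14 (0.27 ± 0.064), whereas the pan-leukocyte marker PTPRC was at 4.23 and 4.09. The leukocyte average takes in LYZ, the brightest of the 9 at 12.90 and 12.83 and not called. In untreated cells 6 of the 9 lay below the median of all values. The 8 fibroblast markers averaged 6.06 to 6.14 and 5.92 to 6.18, with COL1A1 higher and PDGFRB lower. The 6 keratinocyte markers averaged 6.40 to 6.56 and 6.38 to 6.67, and 0 were called in limma or passed at an unadjusted p under 0.05. The 6 endothelial markers averaged 6.15 to 6.29 and 6.10 to 6.32, with only CDH5 called, as lower (-0.25, limma adjusted p = 0.0180), a call lost without untreated replicate 4 (-0.23, adjusted p = 0.0518) or H2O2 replicate 1 (-0.20, adjusted p = 0.0713). The part of CD68, CD79A and CD14 in the S100 values was not tested.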

How the data were processed

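RNA of 8 HepG2 cultures was measured on single-channel arrays, 4 per group. The values are log2 expression per probe set, as deposited by the authors; the summarization of probes and the normalization of arrays are not given in the sources used here, and no detection call was used. Limma is named in the submitters' processing notes without a version or role. Of 32321 probe sets the platform annotation pairs 19158 with 1 symbol, 1388 with several and 11775 with none. The first gave 18404 genes, with the highest-mean probe set taken for 637 genes that had several.

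The groups were compared by a linear model with 1 mean per group and moderated variances (limma 3.58.1, R 4.3.3), Benjamini-Hochberg adjustment over all genes and a call under 0.05. The fit was tested on simulated data. Tables and figures used Python 3.11.15, pandas 2.3.3, numpy 2.4.6 and matplotlib 3.10.9. Promoter stretches came from a RefSeq table of GRCh38.p14, which matched all 10 members. The RefSeq gene table of that assembly gave names, order, the positions behind the overlaps, and which entries are pseudogenes.

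Members and gene lists were chosen with earlier results of these data known. Named genes are all S100 genes, up to 3 called rises and 3 called falls per list, called chromosome 1 neighbours, and the 5 genes nearest to S100A11. Those outside the rule were chosen after their values were seen. They are PLAT, PLAUR, MYH9, ANXA2, AGER, CACYBP, FGF1, IL1A, S100PBP, MDM2, FLG, the markers and genes named only for a changed call. Titles number replicates 1 to 4 in both groups. Same-numbered arrays did not deviate together (Pearson's r -0.068, 0.060, -0.247 and 0.094). The main model has no block because these numbers are not said to pair cultures. Alternatives were that block, quantile normalization, median centring, a variance trend, robust moderation, array weights, a filter on dim genes, other probe set rules and leaving out each array. The design text calls the cultures biological replicates.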

Additional observations from a re-analysis of the deposited data

Results flagged for a closer look

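In 6 of 118 groups of 4 arrays, over 59 named genes, 1 array lay farther from the other 3 than Dixon's critical value allows; chance marks about 1 in 20 such groups. S100A4 was at 7.98 in H2O2 replicate 3, against 7.70 to 7.74 on the other H2O2 arrays. S100A14 was at 6.48 in untreated replicate 1, against 6.32 to 6.34. S100P was at 9.24 in untreated replicate 3, against 9.73 to 9.83. The S100 receptor gene AGER was at 7.15 in H2O2 replicate 3, against 7.05 to 7.06, and the S100P partner S100PBP at 8.36 in the same array, against 8.49 to 8.51. The leukocyte marker CD68 was at 9.68 in untreated replicate 3, against 9.51 to 9.52.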

How the results depend on the processing

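The 8 members called higher stayed called under every one of the 17 alternatives that kept them. Among these, the other probe set rules could not change an S100 level, because every S100 gene had 1 probe set. The filter on dim genes removed S100A2 and S100A14, leaving 7 called of 8 members tested, and likewise left 1 other S100 gene called higher, S100A3, with S100Z removed. Over all alternatives the S100A11 difference ran from 2.78 to 2.94 and that of S100A1, the smallest rise among the members called, from 0.32 to 0.43. S100P was not called in any, at 0.088 to 0.28. With array weights 4111 genes were called lower over all genes, and 1 other S100 gene, S100A12, passed as lower (-0.30, adjusted p = 0.0323). With the replicate block 8 members and 2 other S100 genes were called higher, with 3288 genes higher and 2470 lower in all, and no S100 call changed; in the lists of related genes the block added CACYBP as lower and lost SUGT1 (higher) and CALU (lower). Array weights raised the counts called lower in 4 of the lists of related genes. Leaving out single arrays kept 8 members and 2 other S100 genes called higher, while calls over all genes ran from 3110 to 3686 higher and from 2228 to 3069 lower. INTS3 reversed to -0.029 with its lowest probe set. Signal over background is unknown here, which limits the values of S100A2, S100A14 and the 11 other S100 genes, all below the median of all values in untreated cells. The causes were not tested.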
